A study of Homo sapiens with 4 samples.

Results

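The 8 copies of 5.8S ribosomal RNA (rRNA) listed in these small RNA libraries were examined, out of 7062 counted features. They were chosen by their length of 153 nt, their place in ribosomal DNA (rDNA) repeats and their near-equal counts in all 4 libraries, so those counts chose the members and their equality is given as a description. The libraries came from HEK293T cells, a human embryonic kidney line (given as HEK293 in the sample tables), that had been transiently transfected with a plasmid for a C-terminal domain (CTD) of RNA polymerase II (Pol II) with 52 repeats. The CTD was wild type in 52X WT and had alanine in place of threonine 4 in 52X T4A. Every well got 1.5 µg of plasmid, and α-amanitin, a toxin directed at Pol II, was given at 2.5 µg/ml for 72 h in both groups, so untreated or untransfected cells were not compared. Each group had 2 libraries, described as biological replicates, of single-end 50-bp reads from total RNA, with 16180790 to 27370127 counts per library. Whether the replicates came from separate cultures was not stated, and p-values then measure only the spread between these libraries. The design compared small RNAs between cells kept on the 2 CTD versions. In such bulk RNA, fewer cells and less RNA per cell cannot be told apart.

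5.8S rRNA is a short RNA of the large ribosomal subunit. RNA polymerase I (Pol I) makes it in the nucleolus as part of the 45S pre-rRNA, which carries 18S, 5.8S and 28S rRNA separated by spacers, and cleavage and trimming then release the 3 rRNAs. The 5.8S segment lies between the internal spacers and pairs with 28S rRNA in the mature ribosome. 5S rRNA, the other short RNA of the large subunit, is made by RNA polymerase III (Pol III) from a gene cluster of its own. Neither polymerase carries the CTD that was changed here, whereas most of the small nucleolar RNAs (snoRNAs) that cleave and modify pre-rRNA depend on Pol II.

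The counted sequence is shown for the copy RNA5-8SN5, because short reads cannot tell identical copies of it apart. It was read from the unplaced contig GL000220.1, whose versioned record is in both GRCh37 and GRCh38, and capitals mark the 153 bases the deposited tables count on the plus strand (GL000220.1:112025-112177), within the 157 bases of the RefSeq gene.
RNA5-8SN5: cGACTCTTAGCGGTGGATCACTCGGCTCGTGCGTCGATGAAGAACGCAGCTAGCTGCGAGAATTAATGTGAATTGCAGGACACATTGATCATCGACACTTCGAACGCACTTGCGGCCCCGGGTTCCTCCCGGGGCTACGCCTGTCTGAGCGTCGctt
The second copy on this contig, listed by RefSeq as the pseudogene RNA5-8SP8 (counted bases GL000220.1:155997-156149), had 0 differences over the 157 bases. The full string occurred 2 times on this contig of 161802 nt, and its GC content was 57.3%. The sequences of the other 6 copies were not read here. RefSeq lists 1 more base at the 5′ end of RNA5-8SN5 and 3 more at the 3′ end than were counted. A 50-bp read covers only a stretch of this RNA, and the tables do not tell which stretch was read.

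By overlap with the RefSeq annotation of GRCh38.p14, whose 5.8S entries are 156 or 157 nt long, 5 of the 8 copies are 5.8S rRNA genes inside an annotated 45S gene and 3 are pseudogenes that lie in none. Of the genes, RNA5-8SN2 (ENSG00000278233, chr21:8212572-8212724), RNA5-8SN3 (ENSG00000275215, chr21:8395607-8395759) and RNA5-8SN1 (ENSG00000278189, chr21:8439823-8439975) are on the short arm of chromosome 21. RNA5-8SN5 is ENSG00000274917, and RNA5-8SN4 (ENSG00000276700) is on the contig KI270733.1 at 128877 to 129029, which RefSeq assigns to chromosome 22. The pseudogenes are RNA5-8SP10 (ENSG00000277739, chr21:8256781-8256933), RNA5-8SP8 (ENSG00000273730) and RNA5-8SP9 (ENSG00000275757, KI270733.1, 173956 to 174108). In the 5 genes the counted bases start 6572 to 6604 nt after the start of the 45S gene.

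In 52X T4A, RNA5-8SN2 held 88119 counts in replicate 1 and 165054 in replicate 2, and in 52X WT it held 95070 and 118682. RNA5-8SN5 held 87880 and 165166 against 94926 and 118707. RNA5-8SP9, a pseudogene by annotation, held 87753 and 165323 against 95223 and 118894. The mean of the 3 pseudogene copies differed from that of the 5 genes by -0.22 to 0.09% across the 4 libraries, a closeness that the choice of members fixed. The lowest of all 32 values was 87749 and the highest 165323. By mean count the copies ranked 31 to 38 of the 7062 features.

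Within a library the highest and lowest copy lay 0.421% and 0.675% of the mean apart in 52X T4A, and 0.539% and 0.350% in 52X WT. The SD over the copies was 137 and 368 counts in 52X T4A and 208 and 115 in 52X WT, where the square root of the mean count was 296, 406, 308 and 345 in the same order. These spreads describe how the members were chosen and test nothing. The counts were near-equal but not exactly equal. No copy was the highest in all libraries: RNA5-8SN2 led in 52X T4A replicate 1, RNA5-8SN1 in 52X WT replicate 1, and RNA5-8SP9 in replicate 2 of both groups. The 8 features were treated as 1 measurement, since their counts were near-equal and reads from identical copies cannot be assigned. Not all of their sequences were read, so identity of all 8 was not checked. A count of copies was not taken as a count of independent observations.

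**Figure D1:**
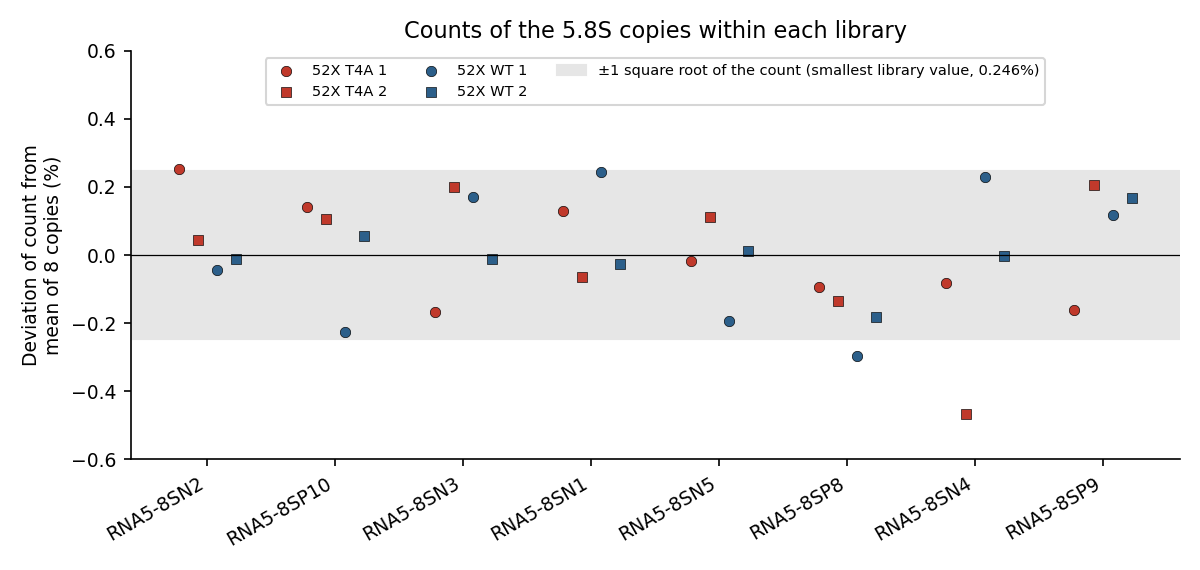
Deviation of each copy's count from the mean of the 8 copies of its library, in percent, by RefSeq name, with 1 point per library. The grey band is 1 square root of the count in the deepest library, and the widest spread, in 52X T4A replicate 2, is 0.675% of the mean.

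A single copy took 0.543% and 0.603% of the counts in 52X T4A and 0.587% and 0.620% in 52X WT. The sum over the 8 took 4.35% and 4.82% against 4.70% and 4.96%. How reads that match several loci were counted was not stated, so whether the amount of 5.8S RNA is nearer to 1 copy or to the sum was not settled. With only 1 copy kept in the table, its log2 fold change was -0.24 (FDR = 0.695, edgeR).

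The mean copy stood at 5553 and 5225 CPM (counts scaled to a common library total, with TMM factors that correct library sizes for composition) in 52X T4A and at 6518 and 6305 in 52X WT. Both 52X T4A libraries were lower than both 52X WT libraries, at 5389 ± 232 against 6411 ± 150 (SD, n = 2 each). The groups did not overlap for any of the 8 copies, which is 1 observation made 8 times. Of the 1480 features tested, 21.2% were likewise lower without overlap and 18.9% higher. The log2 fold change, 52X T4A over 52X WT, ran from -0.26 to -0.25 with an SE of 0.186 and a median of -0.25. By the edgeR quasi-likelihood test the unadjusted p was 0.202 to 0.215 and the adjusted p (FDR) 0.590 to 0.593, and 0 of 8 copies were called, where a call needs an FDR below 0.05 and a fold above 1.5. Only 0.135% of all tested features were called, 2 of 1480. At an unadjusted p below 0.05 there were 0 of 8 copies and 10.3% of all tested features, and DESeq2 called 0 of 8 too. The median over all tested features was -0.05, and 33.9% of them had a lower log2 fold change than the median copy.

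The 52X T4A replicates differed by 0.09 on the log2 scale for 5.8S and the 52X WT replicates by 0.05. The median difference over all tested features was 0.31 and 0.43, and over the 137 features whose mean count reached 10000 it was 0.24 and 0.22. The test shares its estimate of spread across features, and the biological coefficient of variation was 26.0%. The absence of overlap rested on the scaling. With library size alone the mean copy stood at 5433 and 6030 CPM in 52X T4A and 5874 and 6197 in 52X WT, which overlap, and the median log2 fold change was -0.07. That scaling raised the median of all tested features to 0.14. Relative to each setting's own median, the copies lay 0.20 to 0.24 lower under each setting that used all 4 libraries. Other scaling factors move all features by a like amount, so this offset can hardly change with them and tests nothing.

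5S rRNA was set beside 5.8S as the Pol III partner in the same subunit. All 17 genes RNA5S1 to RNA5S17 were tested, and with their near-equal counts they were treated as 1 measurement too. RNA5S10 held 25198 and 42288 counts in 52X T4A and 16911 and 22708 in 52X WT. RNA5S15 held 24820 and 42029 against 17103 and 22809, and RNA5S16 held 25040 and 42124 against 17147 and 22431. The mean gene stood at 1573 and 1322 CPM in 52X T4A and at 1165 and 1195 in 52X WT, so 52X T4A was higher without overlap, with library size alone as well. With TMM factors, 18.9% of all tested features were higher without overlap too. That share was not computed with library size alone, which raised the median log2 fold change of all tested features from -0.05 to 0.14. The log2 fold change was 0.28 to 0.33 with a median of 0.29, the FDR was 0.552 to 0.590, and 0 of 17 were called.

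**Figure D2:**
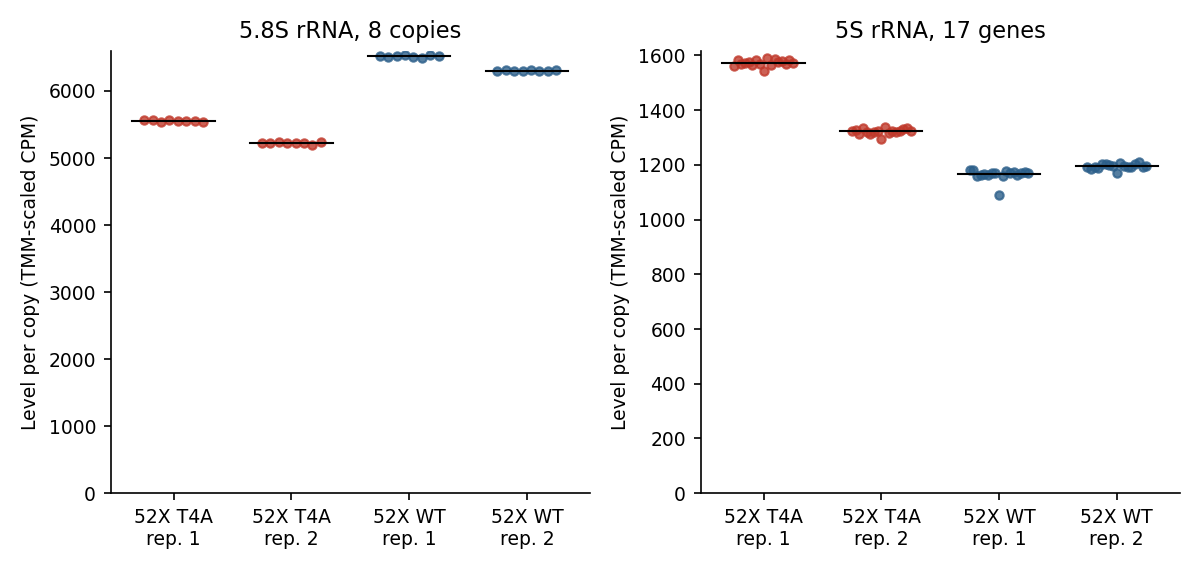
Level per copy in TMM-scaled CPM of the 8 5.8S copies (left) and the 17 5S genes (right) in each library, on separate axes that start at 0. Points are copies or genes and lines their means, which were 5553, 5225, 6518 and 6305 CPM for 5.8S and 1573, 1322, 1165 and 1195 for 5S.

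The ratio of 5.8S to 5S needs no scaling between libraries. It was chosen with the opposite order of the groups for these RNAs known, and it is given as a description. The mean 5.8S copy held 3.53 and 3.95 times the counts of the mean 5S gene in 52X T4A and 5.59 and 5.28 times in 52X WT. Summed over copies and genes, the ratio was 1.66 and 1.86 in 52X T4A and 2.63 and 2.48 in 52X WT. How reads that match several loci were counted was not stated. The size of the 5.8S excess, also per nucleotide, was therefore not settled. Per nucleotide of feature length the mean level was 36.3 and 34.2 CPM for 5.8S against 13.2 and 11.1 for 5S in 52X T4A, and 42.6 and 41.2 against 9.79 and 10.0 in 52X WT. On the log2 scale the mean 5.8S copy over the sum of the 5S genes was -2.27 and -2.10 in 52X T4A and -1.60 and -1.69 in 52X WT. The difference was -0.54, a ratio 1.45-fold higher in 52X WT, and the groups did not overlap. An exact two-sided permutation test cannot go below p = 0.333 with 2 libraries against 2, the value found, so it adds nothing to the absence of overlap. The fitted fold change of neither RNA passed its own test.

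Besides the 8 copies, 6 features are 5.8S pseudogenes of similar length outside the rDNA repeats, the nearest features that the choice of members left out. The most abundant, RNA5-8SP (ENSG00000283274, chr14:16057472-16057622), held 538 and 1037 counts in 52X T4A and 275 and 696 in 52X WT. LOC110467524 held 307 and 477 against 278 and 313, and LOC110467520 158 and 366 against 102 and 232. LOC110467523 and LOC110467522 had 47 to 198 and 31 to 75 counts, and LOC110467521, with 2 to 5, was not tested. The mean counts of the 6 were 3.25 to 636.5, where the lowest-counted 5.8S copy had a mean of 116470. Their sum was 0.160% and 0.164% of that of the 8 copies in 52X T4A and 0.0967% and 0.152% in 52X WT. The 5 tested had log2 fold changes from -0.23 to 0.26 with a median of 0.13, their groups overlapped, and 0 of 5 were called. Each of the 5 changed sign when 1 library or another was left out, and none has a direction here. RNA5-8SP, for example, had 0.26 with all libraries and -0.24 without 52X WT replicate 1.

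Among snoRNAs listed as guides of 5.8S modification, 0 were called, where only 2 of all 1480 tested features were. With SEs of 0.32 to 0.67 and 2 libraries a group, the test cannot show a lack of difference. SNORD71 and SNORD96A, C/D box RNAs that place 2′-O-methyl groups on 5.8S, and the H/ACA box RNAs SNORA69 and SNORA72, which guide pseudouridylation, gave 13 features with SNORD96B, of which 7 were tested. SNORD71 held 1979 and 4333 counts in 52X T4A and 3143 and 2210 in 52X WT, a log2 fold change of -0.34 ± 0.32 (SE, FDR = 0.682, edgeR). The 2 52X WT values lay further apart than the groups, at 215 and 117 CPM against 125 and 137. SNORD96A held 635 and 933 against 792 and 502 counts, with a log2 fold change of -0.22. SNORA72, named at 8 loci, had 2 loci tested, with 0.24 and 0.32. The median of the 7 was 0.15, and all 7 overlapped between groups. Over all tested features, 21.2% were lower and 18.9% higher in 52X T4A without overlap.

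The snoRNAs of pre-rRNA cleavage gave 14 features, all tested, with 0 called and a median log2 fold change of 0.16 beside -0.05 over all features. Of the 14, 11 were above 0 and 3 below, where 682 of all 1480 tested features were above 0 and 798 below. Some of the 14, such as the U3 features, held similar counts, so the 14 are not separate observations. SNORD118, the U8 snoRNA needed to release 5.8S and 28S, held 1936 and 4469 counts in 52X T4A and 2170 and 2781 in 52X WT. Its log2 fold change was -0.17 ± 0.25 (SE, FDR = 0.833, edgeR). SNORD13, the U13 snoRNA, which acts on 18S, had 0.27 ± 0.30. The U3 snoRNAs act in the first cleavages of pre-rRNA, and SNORD3A, SNORD3B-1, SNORD3B-2 and SNORD3C had log2 fold changes from 0.00 to 0.07. The related SNORD3D held 3181 and 7231 counts in 52X T4A and 2463 and 2477 in 52X WT. SNORD3D was higher in both 52X T4A libraries, at 201 and 229 CPM against 169 and 132, with 0.52 ± 0.26 (SE, FDR = 0.467, edgeR). Of the 14, 4 were higher in 52X T4A without overlap (SNORD3D, SNORD13, SNORD14B and SNORD14E), and 9 overlapped. Only SNORD118 was lower without overlap, at 122 and 142 CPM against 149 and 148. Over all 1480 tested features, 18.9% were higher and 21.2% lower without overlap.

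**Figure D3:**
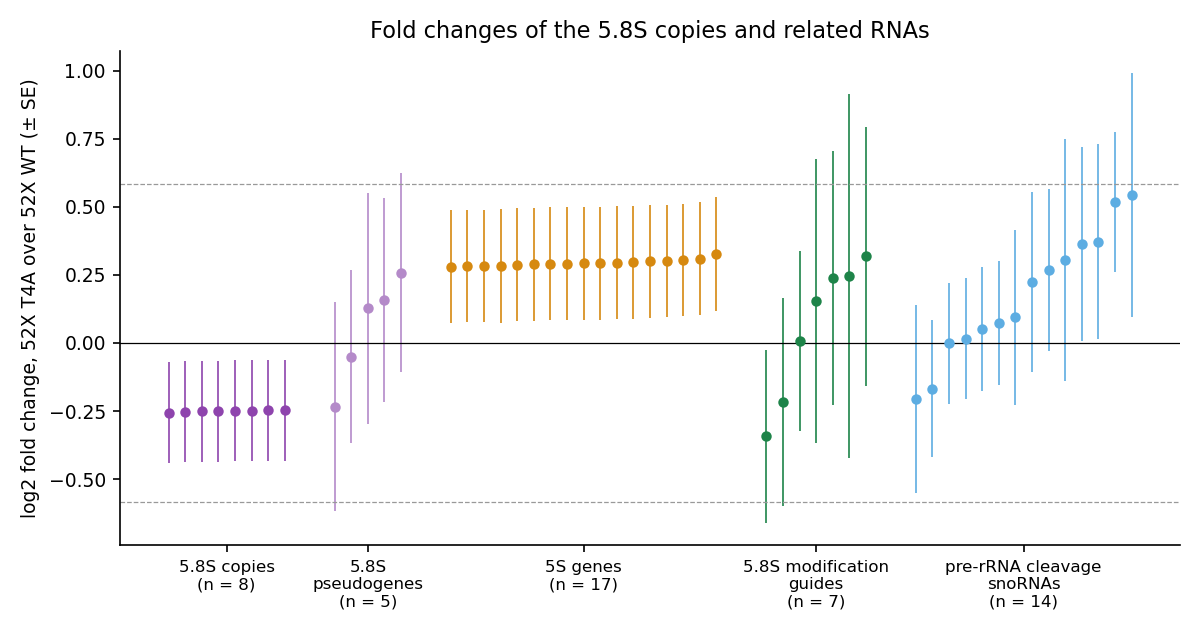
Log2 fold change, 52X T4A over 52X WT, with its SE, for each tested feature of 5 lists, ordered by value within a list. Dashed lines mark a fold of 1.5, and none of the features was called: the 8 copies of 5.8S lie at -0.26 to -0.25 and the 17 5S genes at 0.28 to 0.33.

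The same rDNA repeats hold other counted features, which were chosen after their values were seen. The 45S gene is 13357 nt long, with 18S at 3654 to 5522 nt from its start, 5.8S at 6600 to 6756 and 28S at 7924 to 12993. MIR6724-1, MIR6724-3 and MIR6724-4 start at -692 to -673 nt from a 45S start on the same strand, and MIR6724-2 lies in a repeat with no annotated 45S gene. Their mature RNA is shown here with its seed (bases 2 to 8) in capitals, from RefSeq.
hsa-miR-6724-5p: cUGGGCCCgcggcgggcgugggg
The 4 copies held 122 to 134 and 194 to 207 counts in 52X T4A and 54 to 61 and 84 to 99 in 52X WT. At 6.14 to 8.47 CPM against 3.70 to 5.26, both 52X T4A libraries were higher than both 52X WT libraries for each copy, the opposite order to 5.8S. Of all tested features, 18.9% were likewise higher without overlap, and 10.3% had an unadjusted p below 0.05 (edgeR). The log2 fold change was 0.62 to 0.81 with an SE of 0.34 to 0.36, an unadjusted p of 0.044 to 0.114 and an FDR of 0.46 to 0.50 (edgeR), and 0 of 4 were called. These copies, with like counts, were treated as 1 measurement as well.

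In the 5′ external spacer, which is cut off early, MIR3648-1 starts 2485 nt after the 45S start and held 20 and 39 counts in 52X T4A and 24 and 26 in 52X WT. ENSG00000277437, 61 nt long at 2856 nt, held 27 and 50 against 17 and 35. In the same repeats, 8 features of 90 nt held 5 counts in total, and the 5 of them with an annotated 45S gene start at -137 nt from it. Per nucleotide the mean level of 5.8S was 38.6 CPM over the 4 libraries, that of MIR6724 0.0635, that of MIR3648-1 0.00767 and that of ENSG00000277437 0.0259. Per copy, 5.8S was 607-fold above the highest of these neighbours, MIR6724. These features differ in their number of copies, and how reads that match several loci were counted was not stated. The size of this fold was therefore not settled. The 18S and 28S rRNAs were not analysed here.

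**Figure D4:**
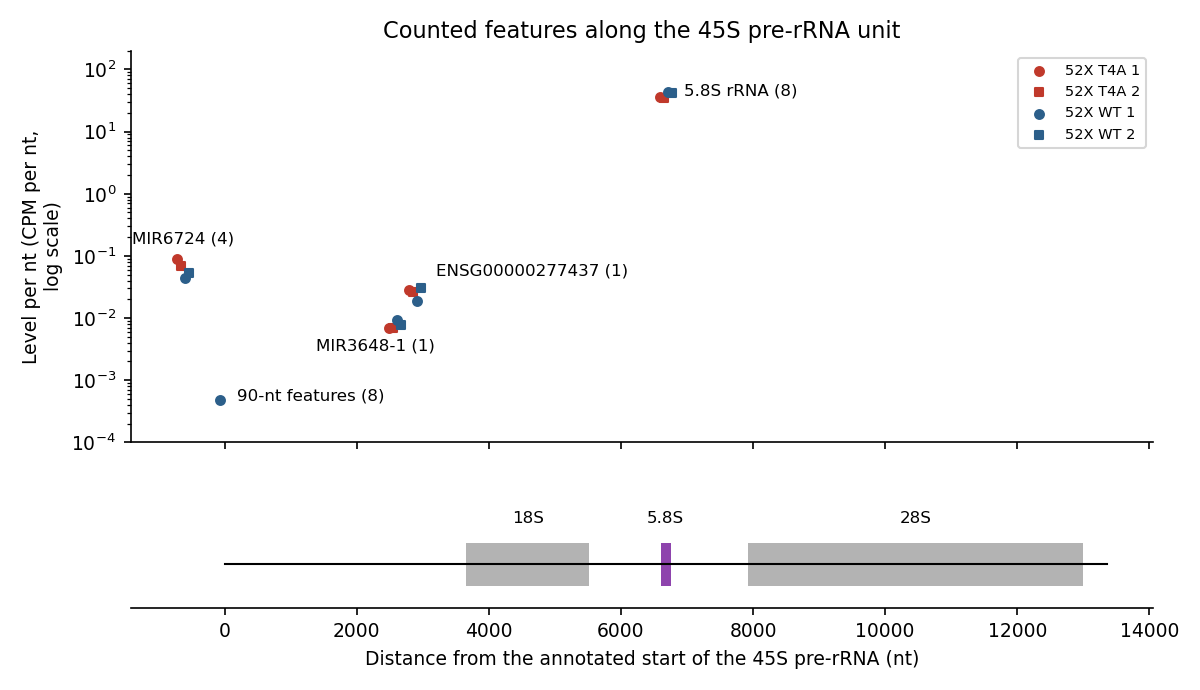
Level of the counted features in CPM per nucleotide (log axis, mean over copies, number of copies in parentheses) against the distance from the annotated 45S start, 1 point per library set side by side, values of 0 left out. Copies with no annotated 45S gene are averaged in with the others. The lower bar shows the 18S, 5.8S and 28S segments, and per copy 5.8S lies 607-fold above MIR6724 on average.

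Mature miRNA sequences of RefSeq were searched letter for letter on the sense strand of the RNA45SN5 unit, from 1000 nt before its start to its end. Of 2538 mature sequences of at least 17 nt, 14 matched, and none of the matches lay in 5.8S. They were in the upstream region (miR-1275 and miR-6724-5p), the 5′ external spacer (miR-663a, miR-663b, miR-3648, miR-10396a-5p, miR-10396b-5p and miR-10396b-3p), the second internal spacer (miR-9901), 28S (miR-4488, miR-4492 and miR-4516) and the 3′ external spacer (miR-1268a and miR-1268b). The 3 that lie in 28S had counts of 0 or 1 in each library at their own genes. MIR1275 held 3 and 9 counts in 52X T4A and 0 and 3 in 52X WT, and MIR663A held 2 and 5 against 2 and 2. A match says only that the letters occur in this window.

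Among 747 tested features whose mean count reached 100, the 5 nearest to 5.8S in log2 CPM pattern over the 4 libraries were picked. In picking them, 1 was kept per set of like-counted features. They were MIR181A2, MIR181A1, MIR340, MIR505 and the U3 snoRNA locus ENSG00000212182. The root mean square difference was 0.02 to 0.06 on the log2 scale. MIR181A2 held 9620 and 18150 counts in 52X T4A and 10243 and 13203 in 52X WT, with a log2 fold change of -0.25. The others had -0.30, -0.16, -0.33 and -0.34 in the order named, and none was called. MIR181A1 held counts close to those of MIR181A2 (9821 and 19093 against 11158 and 13924), so this pair may not be separate observations. With 4 libraries such likeness is a description only.

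**Figure D5:**
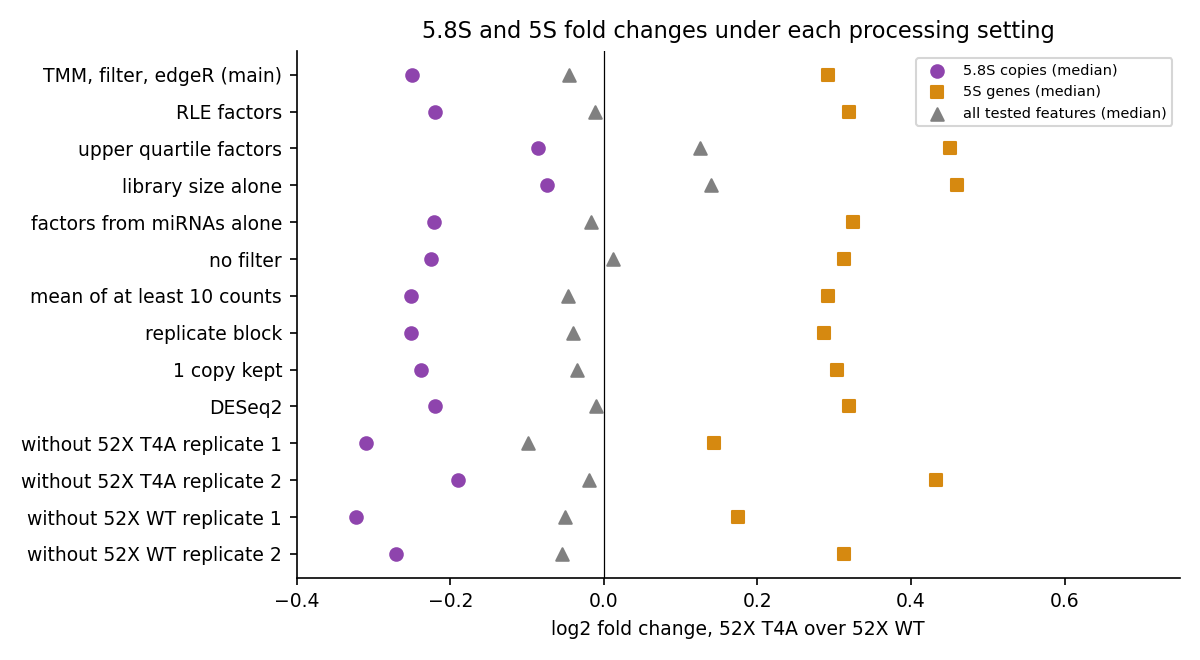
Median log2 fold change, 52X T4A over 52X WT, of the 5.8S copies, the 17 5S genes and all tested features under each processing setting. The 5.8S median lies from -0.32 to -0.07 and the 5S median from 0.14 to 0.46, and no 5.8S copy was called under any setting.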

How the data were processed

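Small RNA libraries of 52X T4A and 52X WT cells (2 each) were analysed. The authors deposited raw read counts for 7062 features per library, with no normalization. The submitters' processing notes name cutadapt 4.6, Bowtie2 2.3.5.1, featureCounts 1.5.0 and hg38, without their roles; annotation, strand setting and multi-mapping rule are not given in the sources used here. Features were named by GENCODE v44lift37 identifier (5578), or identical RefSeq GRCh38.p14 position (912); 572 kept identifiers.

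Counts were tested with edgeR 4.0.16 (R 4.3.3; quasi-likelihood F test, filterByExpr at a minimum count of 10, TMM factors, groups only) over all 1480 features that passed, with Benjamini-Hochberg adjustment (FDR). A call needed an FDR below 0.05 and a fold above 1.5. SE was the log2 fold change divided by the square root of F. All 8 copies passed the filter. With their near-equal counts they were not taken as independent, though not all of their sequences were read. The ratio to 5S used an exact permutation test over libraries. The scripts were tested on simulated data.

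Members, lists and tests were chosen with earlier results of these data known. Named features were the members, other 5.8S loci with a mean of at least 10 counts, listed guide and cleavage snoRNAs, the 3 most abundant 5S genes, 7SL, 7SK and Y RNAs, and the 5 nearest patterns. Alternatives were other scaling factors (RLE, upper quartile, library size, miRNAs alone), other filters, DESeq2 1.42.0, 1 copy kept, a replicate block and leaving out each library. Each copy had at least 87749 counts, and each group 2 libraries. With 1 library of a group left out, the lone library was assumed to vary like the other group.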

Additional observations from a re-analysis of the deposited data

How the results depend on the processing

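The 5.8S copies had a log2 fold change below 0 and no call under every setting run, with 1 copy tested in the setting that kept 1 and 8 in the others. Their median of -0.25 was -0.086 under upper quartile scaling and -0.074 with library size alone, while the median over everything tested went from -0.05 to 0.13 and 0.14. Leaving out 1 library gave -0.32 to -0.19. The smallest FDR of a copy was 0.590 to 0.916 over settings with 4 libraries and 0.689 to 0.978 with 1 left out. The split of features at an unadjusted p below 0.05 was 59 higher and 93 lower, against 108 and 54 under upper quartile scaling and 116 and 68 by library size alone.

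Calls over all features, 2 here, were 9 with library size alone, 29 with no filter, 18 with the replicate block and 28 with DESeq2, and 4 to 218 with 1 library left out (4 and 6 without 52X T4A replicates 2 and 1, 35 and 218 without 52X WT replicates 1 and 2). The cause was not tested. Same-numbered libraries showed a correlation of deviations of 0.0946, and the labels do not say that numbers pair them. The replicate block left the 5.8S median at -0.25 (smallest FDR 0.653) and, of the features for which it was computed, changed the calls of RNY4, MIR1-1 and MIR1-2. The 5.8S to 5S difference of -0.54 was -0.56 to -0.54 with other 5S or 5.8S sums and -0.62 to -0.46 with 1 library left out.

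Signs turned for LOC110467524 (0.11 under upper quartile scaling, 0.12 by library size alone), SNORD118 (0.020) and MIR340 (0.011), the last pair by library size alone. Under upper quartile scaling and by library size, in this order, they turned for RN7SK (0.11 and 0.13), RNY3 (0.070 and 0.080), RN7SL1 (0.093 and 0.100) and RN7SL3 (0.14 and 0.150). RN7SL3 also turned with RLE factors (0.011), miRNA factors (0.018), no filter (0.0051) and DESeq2 (0.011). With 1 library left out they turned for SNORD71 (-0.71 to 0.069), SNORD96A (-0.64 to 0.28), RNY3 (-0.39 to 0.137), RN7SL1 (-0.23 to 0.078), RN7SL3 (-0.20 to 0.155), RNA5-8SP (-0.24 to 0.83), LOC110467520 (-0.28 to 0.63), LOC110467522 (-0.62 to 0.17), LOC110467523 (-0.41 to 0.84) and LOC110467524 (-0.25 to 0.14), with both ends set by leaving out a 52X WT library, save for LOC110467524, RN7SL1 and RN7SL3, where a 52X T4A library set them.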

Other observations

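Other abundant RNAs not made by Pol II gave 7 features, whose log2 fold changes had a median of -0.07, and 0 were called. All 7 lay below 0 with TMM factors, but RN7SL1, RN7SL3, RNY3 and both RN7SK entries lay above 0 by library size alone (0.08 to 0.15). Both RN7SK entries mark the same locus with the same counts (148 and 283 against 135 and 182) and are 1 measurement. RNY4, a small RNA of Ro particles, held 550586 and 659912 counts in 52X T4A and 808581 and 593993 in 52X WT, with -0.64 (FDR = 0.467, edgeR). Its groups overlapped, at 34787 and 20901 CPM against 55411 and 31553. RNY4 was called with no filter (FDR = 0.0015, edgeR) and with the replicate block (FDR = 0.037, edgeR). Calls over all features were 29 and 18 under these settings, against 2 in the main one. RNY4 had -1.07 without 52X T4A replicate 1. RNY1 held 5614 and 7402 against 9155 and 6850, with -0.75 (FDR = 0.460, edgeR), and had -1.09 without 52X WT replicate 2. With such a library left out, 1 group holds a single library, whose spread is assumed to be that of the other group. RN7SL1, the RNA of the signal recognition particle, had -0.07 and the 7SK RNA RN7SK -0.05. Of 15 5S pseudogenes 6 were tested and 0 called, with RNA5SP532 the furthest from 0 at 1.54 (34 and 48 counts against 6 and 15, FDR = 0.348, edgeR). It had 2.11 without 52X WT replicate 2.

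Among miRNAs that mark other cell types, the summed level of the 4 muscle miRNAs was 79.8 to 95.4 CPM in 52X T4A and 30.2 to 32.8 in 52X WT, nearly all from MIR1-1 (738 and 1259 counts against 220 and 309, FDR = 0.186, edgeR) and MIR1-2. MIR1-1, with a log2 fold change of 1.46, was called by library size alone (FDR = 0.0177, edgeR), with no filter (FDR = 0.0096, edgeR), with the replicate block (FDR = 0.0300, edgeR) and with DESeq2 (FDR = 0.0016). Without either 52X WT library it had 1.30 and 1.52. MIR1-2, with near-equal counts (740 and 1253 against 219 and 307), was called under the same settings. Calls over all features were 9, 29, 18 and 28 under these settings, in the order named. The pair is best read as 1 measurement, and the summed muscle level takes in both. Their part in the 5.8S result was not tested. Summed within each cell type, the liver, red cell, myeloid and pluripotent miRNAs each stood at less than 1 CPM in each library. The 3 neuronal ones summed to 4.36 to 8.04 CPM against 6.80 to 12.1.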
